A study of Mus musculus with 6 samples.

Results

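Hox genes encode homeodomain transcription factors that mark position along the body axis, and they were read here in bone marrow stromal cells (BMSC) recovered from stroke-injured mouse brain and in their parent cells, which were not injected. A Hox gene was taken into the account when its symbol is Hox followed by a cluster letter from a to d and a number and when the array carries a probe set annotated to that gene alone. Of 39 Hox genes in the RefSeq gene table, 33 had such a probe set, out of 18193 genes measured on the arrays. Where a gene had several, the brightest by mean log2 signal over the 6 arrays represented it. The others are not analysed here.

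Both groups came from H-2Kb-tsA58 mice (Immortomouse, CBA/ca × C57Bl/10 hybrid), in which the H-2Kb promoter drives a temperature-sensitive SV40 large T antigen, so that cells of many types can divide at 33°C. The iLarge T BMSC were injected into a vein of male C57Bl/6J mice, 6 to 8 weeks old, 24 h after reperfusion that followed a 1 h occlusion of the middle cerebral artery, were released from the infarcted hemisphere 14 days after injection and were grown again at 33°C. The naïve Large T BMSC were the parent cells, adherent cells of femur and tibia marrow cultured at 33°C that were not injected. Each group had 3 arrays, numbered 2, 4 and 6 for iLarge T and 1, 3 and 5 for naïve cells, and each array held RNA pooled from 3 hemispheres or 3 sets of naïve cells. The p-values therefore measure the spread between arrays of pooled RNA, and in such bulk samples fewer cells that express a gene cannot be told apart from less RNA per cell. The donor animals' age and sex are not given in the sources used here.

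Mammalian Hox genes lie in 4 clusters, HoxA to HoxD. Members at the same place in different clusters form a paralog group, numbered from 1 at the end used in the anterior trunk and hindbrain to 13 at the end used in the tail, the digits and the urogenital tract. The order along the chromosome matches the order of expression along the body. Adult fibroblasts and stromal cells keep much of the pattern of the place they came from, the limb skeleton uses the paralog groups 9 to 13, and most mesenchyme of the face and the front of the skull uses no Hox gene. Hox proteins bind DNA together with the TALE homeodomain cofactors of the PBX, MEIS and PREP families, and Polycomb and Trithorax group proteins keep the clusters silent or active.

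The arrays gave no detection calls. A signal under the 40th percentile of all probe sets of its array was therefore taken as near background. That limit was 299.6, 274.3 and 182.5 on iLarge T replicates 2, 4 and 6, and 281.8, 199.6 and 185.8 on naïve replicates 1, 3 and 5. Naïve replicate 1 stood apart. Across probe sets its log2 signals correlated with naïve replicates 3 and 5 at 0.829 and 0.831, whereas naïve replicates 3 and 5 correlated with each other at 0.892. Of 12 measured stromal markers, 11 were at or above the limit on all arrays of both groups, and Lepr was under it on 1 array of each. Mesothelial markers were bright on the naïve arrays, with a summed signal of 2742 to 4117 in iLarge T and 30390 to 153131 in naïve cells for 5 genes, and all 5 were at or above the limit on all 3 naïve arrays. Of these Upk3b, Wt1, Lrrn4 and Krt19 were called lower in iLarge T cells.

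Endothelial markers moved in opposite directions. Their sum over 6 genes was 6668 to 49454 in iLarge T and 6640 to 9906 in naïve cells, but Tek, at 458 to 1300.3 in iLarge T and 5703 to 9080.3 in naïve cells, made up most of the naïve sum and was called lower in iLarge T cells (log2 fold change -3.51), while Cdh5 and Emcn were under the limit on all naïve arrays and were called higher, at least 24.1-fold and 23.3-fold. The 6 hematopoietic markers summed to 5248 to 32853 in iLarge T and 2752 to 11452 in naïve cells. Ptprc was over the limit on iLarge T replicate 6 alone, Csf1r was over it on all 6 arrays and was called higher (2.88), and Cd68 was over it on all 6 arrays, with 317, 1329 and 16962 on iLarge T replicates 2, 4 and 6 and 544, 9873 and 8396 on naïve replicates 1, 3 and 5. The other Csf1r probe sets were not called (log2 fold changes 3.66 and 1.05, adjusted p = 0.0690 and 0.177 from limma). Of 5 mural markers Rgs5 (at least 27.8-fold) and Cspg4 (log2 fold change 3.56) were called higher, with a sum of 137424 to 180457 in iLarge T and 32170 to 152315 in naïve cells. The others were not called. Kcnj8 was under the limit on all 6 arrays (log2 fold change -0.53), Abcc9 was over it on 1 iLarge T array alone, and Acta2 was over it on all 6. Among stromal markers Pdgfrb and Cd44 were called higher and Vcam1 lower. Of 4 microglia markers Tmem119 alone was called, higher. Cx3cr1, Aif1 and P2ry12 were not (log2 fold changes 1.61, 2.89 and -1.46). Of 4 neuron markers Tubb3 alone was called, higher, and Rbfox3, Syt1 and Snap25 were not. None of 4 astrocyte and 4 oligodendrocyte markers was called. Gfap read 446, 173 and 3104 on iLarge T replicates 2, 4 and 6 and 283, 189 and 23.1 on naïve replicates 1, 3 and 5. Of the 15 marker calls by limma, 8 held without any 1 array, 0 by the methods' t-test on log2 signals and 4 without the intensity trend. Lost without 1 array were Wt1 (naïve replicate 3), Lrrn4 (naïve replicate 3 or 5), Rgs5 (iLarge T replicate 2 or 6), Csf1r (iLarge T replicate 2 or 6, naïve replicate 3 or 5) and, without any array other than naïve replicate 1, Cd44, Krt19 and Tubb3.

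The start regions of 4 Hox genes whose readings carry the account below differ in base composition over the windows read. RefSeq start sites of the build GRCm38.p6 were used, and 21 Hox windows of 19 genes could be read. Each sequence is the 250 bases before the start site, 5′ to 3′ on the gene's strand, and capitals mark a match to the MEIS motif TGACAG on either strand. Hoxd8 lies at chr2:74704365-74704614 (plus strand), Hoxa9 at chr6:52227371-52227620, Hoxa3 at chr6:52213068-52213317 and Hoxa5 at chr6:52204588-52204837 (all minus strand).
Hoxd8: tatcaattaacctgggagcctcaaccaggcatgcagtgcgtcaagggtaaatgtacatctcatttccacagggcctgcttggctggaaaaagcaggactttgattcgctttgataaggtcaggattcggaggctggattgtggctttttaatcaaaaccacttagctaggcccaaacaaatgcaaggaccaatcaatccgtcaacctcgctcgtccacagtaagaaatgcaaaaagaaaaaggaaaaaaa
Hoxa9: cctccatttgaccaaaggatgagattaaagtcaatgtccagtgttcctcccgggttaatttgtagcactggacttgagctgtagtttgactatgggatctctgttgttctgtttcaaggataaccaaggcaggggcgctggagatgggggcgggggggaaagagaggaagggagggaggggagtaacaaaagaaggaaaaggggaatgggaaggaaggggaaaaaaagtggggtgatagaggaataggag
Hoxa3: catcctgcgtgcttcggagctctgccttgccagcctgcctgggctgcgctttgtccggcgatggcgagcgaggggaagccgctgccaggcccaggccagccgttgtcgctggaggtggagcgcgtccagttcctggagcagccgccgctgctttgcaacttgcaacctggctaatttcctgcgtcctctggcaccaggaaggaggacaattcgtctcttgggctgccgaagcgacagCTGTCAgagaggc
Hoxa5: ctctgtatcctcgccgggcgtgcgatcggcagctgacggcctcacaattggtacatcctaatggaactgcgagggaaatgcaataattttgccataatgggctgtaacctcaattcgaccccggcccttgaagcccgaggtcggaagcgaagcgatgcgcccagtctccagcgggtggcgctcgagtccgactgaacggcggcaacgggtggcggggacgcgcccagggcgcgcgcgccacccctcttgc
The windows of Hoxd8 and Hoxa9 held 6 and 3 CG dinucleotides and had a GC content of 44.4% and 49.6%. Those of Hoxa3 and Hoxa5 held 18 and 28 CG dinucleotides at 64.8% and 63.6% GC. The median was 13 over the 21 Hox windows and 6 over 32851 windows of all genes. Of the Hox windows, 2 held TGACAG, 3 held the PBX-HOX motif TGATNNAT and 2 held TATAAA, searched on both strands, against 15.9%, 7.68% and 12.4% of all windows. A match describes the letters and does not show a bound site. By position the Hoxa3 window lies between those of Hoxa5 and Hoxa9, out of paralog order. It need not stand for other starts of that gene.

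Most Hox genes were near background in both groups. In iLarge T BMSC, 6 of 33 (18.2%) were at or above the limit on all 3 arrays, namely Hoxa3, Hoxa5, Hoxa9, Hoxb3, Hoxc13 and Hoxd8, where 61.1% of all genes were. In naïve cells 2 of 33 (6.06%), Hoxa3 and Hoxa5, were, against 58.8% of all genes. These 2 were also the Hox genes at or above it on all 6 arrays, as 54.2% of all genes were. Under it on all 6 arrays were 8 Hox genes (24.2%, against 11.2% of all genes): Hoxa7, Hoxb1, Hoxb5, Hoxb13, Hoxc10, Hoxd10, Hoxd11 and Hoxd12. The other 23 crossed the limit on some arrays and not on others. Among them, Hoxa2, Hoxa10, Hoxa11, Hoxb2, Hoxb6, Hoxc4, Hoxc5 and Hoxc8 were at or above it on 1 iLarge T array and 0 naïve arrays, and Hoxb4 and Hoxd9 on 2 iLarge T arrays and 1 naïve array. Hoxb9 and Hoxc6 were so on 2 arrays of each group and Hoxa13 on 1 of each. The naïve arrays held more in 6 genes. Hoxa4 and Hoxd13 were at or above the limit on 1 iLarge T array and 2 naïve arrays, Hoxd1 on 0 and 2, and Hoxb7, Hoxc9 and Hoxd3 on 0 and 1. Hoxa9 and Hoxb3 were at or above it on all 3 iLarge T arrays and under it on all 3 naïve arrays, a pattern of 6.06% of Hox genes and 1.32% of all genes, and no Hox gene had the opposite pattern, which 0.511% of all genes had.

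**Figure D1:**
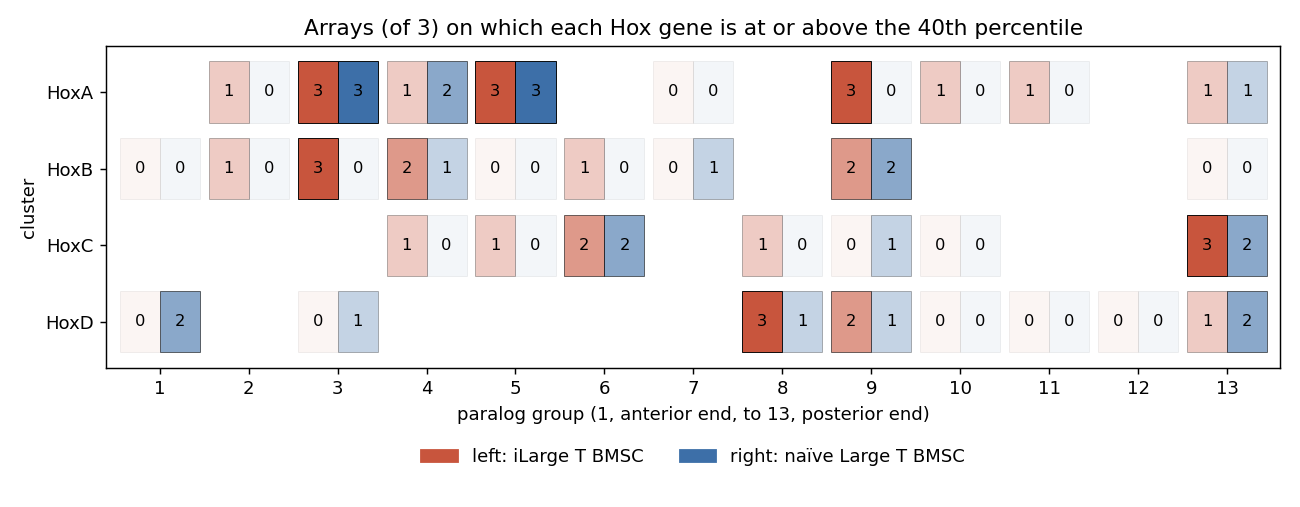
Each box is a measured Hox gene, placed by cluster (rows) and paralog group (columns), and the number and shade give on how many of 3 arrays its signal was at or above the 40th percentile, with iLarge T BMSC in the left part and naïve Large T BMSC in the right part. The 6 genes at 3 arrays in iLarge T and the 2 in naïve cells lie in no unbroken stretch of any cluster. In naïve cells Hoxa4, between Hoxa3 and Hoxa5, is at 2 arrays, being under the limit on replicate 1 alone.

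The genes above the limit on all 3 arrays of a group did not form a block of neighbours. In iLarge T BMSC they belonged to paralog groups 3, 5, 8, 9 and 13 and in naïve cells to groups 3 and 5. On naïve replicates 3 and 5, however, Hoxa3, Hoxa4 and Hoxa5 were all above the limit. The gap at Hoxa4 came from naïve replicate 1 (12.2), although the other Hoxa4 probe set was above the limit on 0 arrays of either group. By region, 2 of 10 genes of groups 1 to 4, 2 of 9 of groups 5 to 8 and 2 of 14 of groups 9 to 13 were at or above it on all 3 iLarge T arrays, and 1, 1 and 0 were on all 3 naïve arrays. Counted as single readings, 37 of 99 were at or above the limit in iLarge T and 25 of 99 in naïve cells. By cluster these were 14 of 27 readings in iLarge T against 9 in naïve cells for HoxA, 9 of 27 against 4 for HoxB, 8 of 21 against 5 for HoxC and 6 of 24 against 7 for HoxD. Few were far above it. At least 2-fold over the limit lay 18 readings in iLarge T and 11 in naïve cells, and at least 4-fold over it 6 in each group.

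Every iLarge T array placed more Hox genes above its limit than any naïve array did. There were 11, 15 and 11 on iLarge T replicates 2, 4 and 6, or 33.3%, 45.5% and 33.3% of the 33 genes, and 6, 10 and 9 on naïve replicates 1, 3 and 5, or 18.2%, 30.3% and 27.3%. Of all genes, 70.6% to 73.0% were above it on iLarge T arrays and 68.7% to 69.1% on naïve arrays. The median Hox gene lay at percentiles 26.4, 39.3 and 33.8 of all probe sets on iLarge T replicates 2, 4 and 6, and at percentiles 15.4, 25.3 and 28.0 on naïve replicates 1, 3 and 5. Some states rested on very small margins. Hoxb3 was just inside the limit on iLarge T replicate 2 (301 against 299.6), as Hoxa2 was on replicate 6 (184 against 182.5), while Hoxc10 was just outside on iLarge T replicate 4 (269.7 against 274.3) and Hoxd13 on naïve replicate 5 (182 against 185.8).

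**Figure D2:**
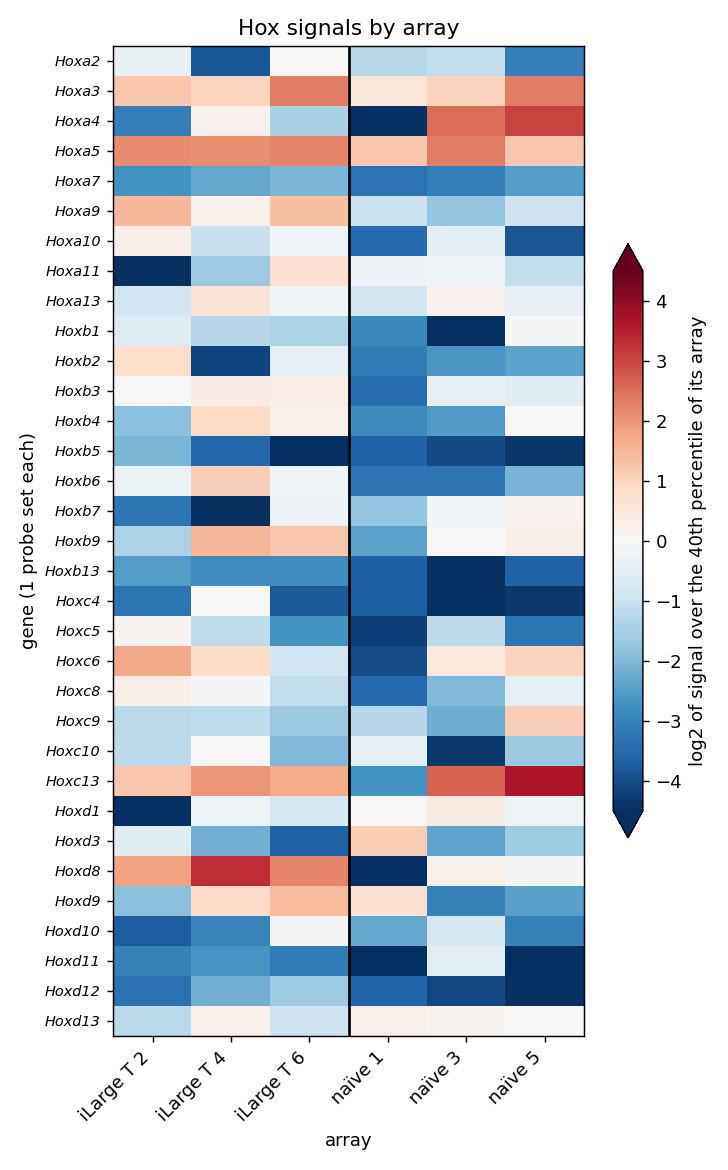
Each row is a Hox gene in chromosomal order within its cluster and each column an array, with the 3 iLarge T arrays left of the line and the 3 naïve arrays right of it. Colour gives the log2 of the signal over the 40th percentile of that array, red above and blue below (ends of the scale saturated), and red cells in all columns are seen for Hoxa3 and Hoxa5 alone.

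No Hox gene passed the test between the groups. A call needed at least a 2-fold change with an adjusted p under 0.05 in limma, which fits all 45037 probe sets at once and steadies each one's variance with the others. It was met by 0 of 33 Hox genes in each direction, where 3.54% of all genes were called higher and 3.26% lower in iLarge T cells. At an unadjusted p under 0.05 there were 3 Hox genes (9.09%, against 22.0% of all genes), namely Hoxa9, Hoxb6 and Hoxd8. Among single probe sets, limma called 0 of the 48 Hox probe sets, against 2.47% of all probe sets higher and 2.27% lower, and 5 Hox probe sets had an unadjusted p under 0.05, as did 17.5% of all probe sets. The methods' t-test also called none, on log2 or on linear signals, where it called 28 and 100 of all 45037 probe sets.

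The direction leaned to higher signals in iLarge T cells, mostly among readings near background. The log2 fold change, iLarge T minus naïve, was above 0 in 25 of 33 Hox genes (75.8%, against 52.5% of all genes), with a median of 1.26 over Hox genes and 0.06 over all genes. With signals under the 40th percentile raised to it, the Hox median was 0.18. The values ranged from -2.02 for Hoxb7 to 4.12 for Hoxd8. In 7 genes (21.2%, against 14.5% of all genes) the iLarge T arrays were all higher than the naïve arrays: Hoxa7, Hoxa9, Hoxb3, Hoxb6, Hoxb13, Hoxd8 and Hoxd12. Of these Hoxa7, Hoxb13 and Hoxd12 were under the limit on all 6 arrays. In no Hox gene were they all lower, as they were in 13.1% of all genes. Precision was low. The median standard error was 1.22 on the log2 scale for Hox genes, against 0.57 for all genes and 0.34 for genes at or above the limit on all 6 arrays. Of the 95% intervals, 0 of 33 lay within a 2-fold change either way and 2, those of Hoxa3 and Hoxa5, within a 4-fold change, so equal levels were not shown either.

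**Figure D3:**
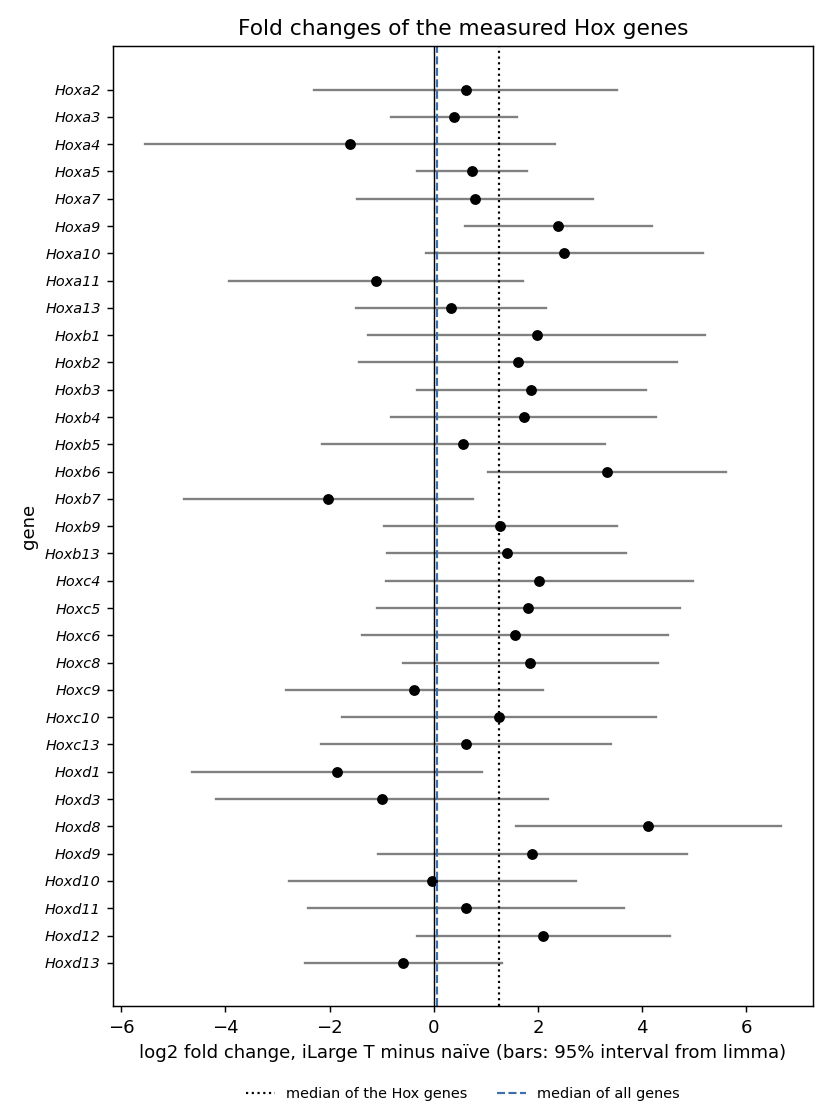
Points are the log2 fold changes of the 33 Hox genes, iLarge T minus naïve, and bars their 95% intervals from limma, with 3 arrays a group. The dotted line is the Hox median of 1.26 and the dashed line the median of all genes at 0.06, and 3 intervals, of Hoxa9, Hoxb6 and Hoxd8, leave out 0.

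Hoxd8, a gene of the middle of the HoxD cluster that is used in the trunk, came closest to a call. Its signal was 1053, 2747 and 843 on iLarge T replicates 2, 4 and 6, and 11.1, 236 and 179 on naïve replicates 1, 3 and 5. All iLarge T arrays were well above their limits and above every naïve array, and of the naïve arrays only replicate 3 was over its own. The log2 fold change was 4.12 (SE 1.14, 95% interval 1.57 to 6.66, adjusted p = 0.0759 from limma). The second probe set of the gene read 719, 1177 and 751 on the iLarge T arrays and 225, 12.5 and 8.97 on the naïve arrays. All 3 naïve readings were under the limit. The mean iLarge T signal was 3.93-fold over the mean naïve limit, without allowance for the spread between arrays (adjusted p = 0.0589 from limma). Both probe sets thus separated the groups, but they placed naïve replicate 1 at opposite ends of its group. The gene was called higher when low signals were raised to the limit (adjusted p = 0.00539 from limma), with the mean of its probe sets (0.00678) and without naïve replicate 1 (0.0188), where the log2 fold change was 2.71. It was also called with arrays of like spike-in signals as a block (0.0340), a choice made after the data had been seen.

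Hoxa9, which patterns the posterior trunk and the limb base and supports blood progenitors, had signals of 817, 319 and 462 on iLarge T replicates 2, 4 and 6, against 143, 59.9 and 97.7 on naïve replicates 1, 3 and 5. The groups did not overlap and lay on either side of the limit. The mean iLarge T signal was 2.26-fold over the mean naïve limit, without allowance for the spread between arrays. The log2 fold change was 2.39 (95% interval 0.59 to 4.18, limma adjusted p = 0.142). Its second probe set was under the limit on all 6 arrays, with at most 60.6 in iLarge T and at most 134 in naïve cells, and had a log2 fold change of -1.14 (limma adjusted p = 0.703). Hoxb3, a gene of the hindbrain and pharyngeal arches, had 301, 353 and 228 on the iLarge T arrays and 25.8, 152 and 126 on the naïve arrays. Its mean iLarge T signal was 1.32-fold over the mean naïve limit. The 95% interval of its log2 fold change, -0.32 to 4.07, held 0 (limma adjusted p = 0.372). The second Hoxb3 probe set was under the limit on all 6 arrays. It read 118, 234 and 180 in iLarge T and 87.8, 36.7 and 20.0 in naïve cells (log2 fold change 2.09, limma adjusted p = 0.348). Hoxb6, used in the thoracic region and limb bud, read 241, 596 and 169 against 28.2, 19.8 and 43.2 in naïve cells. It was over the limit on iLarge T replicate 4 alone, although the groups did not overlap (limma adjusted p = 0.108), and no fold is given because most readings of both groups were near background.

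Hoxa3 and Hoxa5 were above the limit throughout. Hoxa3, needed for the thymus, the parathyroid and the carotid body, had signals of 696, 535 and 895 on the iLarge T arrays and 410.2, 397 and 918 on the naïve arrays. The ranges overlapped and the log2 fold change was 0.39 (SE 0.54, 95% interval -0.83 to 1.60, adjusted p = 0.793 from limma). The 4 probe sets of Hoxa3 disagreed, with 2 values above and 2 below 0. Those other than the brightest were above the limit on 1, 0 and 2 iLarge T arrays and on 2, 0 and 1 naïve arrays. On the set with the widest spread the signals were 311, 31.0 and 149 in iLarge T and 227, 801 and 1052 in naïve cells, a log2 fold change of -2.35 (adjusted p = 0.267 from limma). Hoxa5, which acts in the lung and the cervical and thoracic skeleton, had 1303, 1156 and 839.9 on the iLarge T arrays and 649, 980.1 and 432 on the naïve arrays. Only naïve replicate 3 reached into the iLarge T range. The log2 fold change was 0.73 (SE 0.47, 95% interval -0.31 to 1.78, adjusted p = 0.485 from limma). The second probe set of Hoxa5 read 457, 301 and 219 in iLarge T cells, all above the limit, and 29.7, 994 and 792 in naïve cells, where replicate 1 was under it.

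**Figure D4:**
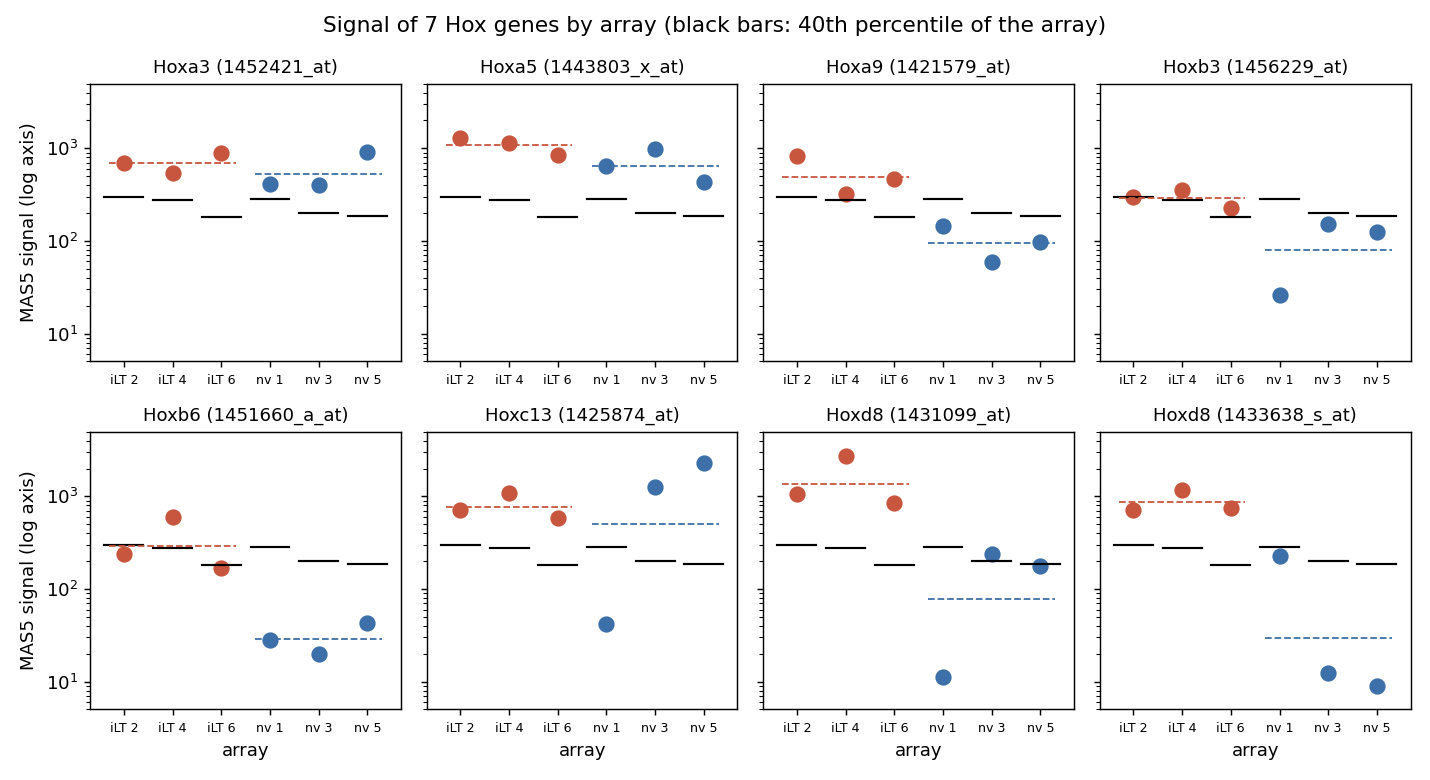
Points are MAS5 signals (log axis) of 7 Hox genes on iLarge T replicates 2, 4 and 6 (iLT, red) and naïve replicates 1, 3 and 5 (nv, blue), with Hoxd8 shown by both of its probe sets. Black bars are the 40th percentile of each array and dashed lines the group means on the log scale, and no iLarge T point of Hoxd8 or Hoxa9 is as low as any naïve point.

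Hoxc13, a gene of hair follicles and nails, split the naïve arrays. Its signals were 708, 1088 and 582 on the iLarge T arrays and 42.2, 1268 and 2300.0 on naïve replicates 1, 3 and 5. The iLarge T arrays lay between naïve replicate 1 and the other naïve arrays. The log2 fold change of 0.62 (adjusted p = 0.868 from limma) turned to -1.16 without naïve replicate 1, with no call either way. Hoxa4 had the same shape on a larger scale, with 35.7, 317 and 66.9 in iLarge T and 12.2, 1151 and 1522 in naïve cells, a log2 fold change of -1.61 (SE 1.76, adjusted p = 0.722 from limma), and it was called lower without naïve replicate 1. Together with Hoxb9 and Hoxc6, these were the 4 Hox genes (12.1%, against 4.24% of all genes) under the limit on naïve replicate 1 and at or above it on naïve replicates 3 and 5. The mesothelial markers differed between the same arrays. Upk3b, a uroplakin, was at 20652 on naïve replicate 1, against 76456 and 78960 on replicates 3 and 5, and was 29.3 to 67.9 in iLarge T cells. The transcription factor Wt1 was at 2274, 14912 and 13504 on naïve replicates 1, 3 and 5 and at 9.49 to 329 in iLarge T cells. The part of these cells in the Hox readings was not tested.

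The paralog groups 10 and 11 of the limb skeleton, the tissue around the marrow that was sampled, were dim in both groups. Of paralog group 10, which patterns the thigh and upper arm, 1 of 9 readings was at or above the limit in iLarge T and 0 of 9 in naïve cells. Of group 11, which patterns the lower leg and forearm, 1 of 6 and 0 of 6 were. Hoxa10 read 368, 138 and 162 on the iLarge T arrays and 25.0, 139 and 12.7 on the naïve arrays. Hoxa11 read 13.4, 87.9 and 296 against 235, 172 and 87.9, and Hoxd11 did not exceed 143 on any array. Hoxc9 and Hoxc10, hindlimb genes of the HoxC cluster, reached the limit on 1 array between them, naïve replicate 5 for Hoxc9 (399.5). Group 13, used in the hand and foot, had 5 of 12 readings above it in each group, 3 in iLarge T and 2 in naïve cells being of Hoxc13. Paralog groups 9 (7 of 12 in iLarge T, 4 of 12 in naïve cells) and 3 (6 of 9 and 4 of 9) held many of the other readings above the limit. A dim signal here bounds a level and does not show that a transcript is absent.

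Probe sets of one gene often disagreed on Hox genes. Of 11 genes with 2 or more, the log2 fold changes had the same sign on all probe sets in 7 and mixed signs in 4, namely Hoxa3, Hoxa4, Hoxa9 and Hoxc5. Genes with the same sign included Hoxc6 (3 of 3 above 0), Hoxb3, Hoxb4, Hoxa10 and Hoxd8. Another 3 probe sets match a pair of Hox genes each and were not used. On them the shared Hoxb8 and Hoxb7 probe set was above the limit on iLarge T replicate 4 alone, and both shared by Hoxd3 and Hoxd4 were under it on all 6 arrays.

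Genes that work with or upstream of Hox genes were also read, with 20 calls by limma in all. Of these, 7 held without any 1 array, and with the methods' t-test 0 of 20 were past the threshold on log2 and 2, Meis2 and Dpy30, on linear signals. Without limma's intensity trend 3 of the 20 were kept, Foxd1, Hand2 and Msx2, and Meis2 (adjusted p = 0.0620), Prrx1 (0.0678), Ezh2 (0.0724) and Psip1 (0.0857) were among those lost. All 20 were kept with arrays of like spike-in signals as a block, a choice made after the data had been seen. Of all genes 3.54% were called higher and 3.26% lower. Of 8 measured TALE cofactors, 7 were at or above the limit on all 3 arrays in each group, 0 were called higher and 2 lower in iLarge T cells. Meis2 had signals of 2559, 3657 and 1942 on the iLarge T arrays and 16165, 14725 and 14877 on the naïve arrays, and fell by 2.54 on the log2 scale (SE 0.28, adjusted p = 0.00146 from limma). Its values did not overlap between groups, and 3 of its 4 probe sets were called lower. Meis1 fell by 2.77 (SE 0.63, adjusted p = 0.0368 from limma), with 721, 927 and 246 in iLarge T cells and 1587, 5953 and 5479 in naïve cells. That call was lost on leaving out any 1 array other than naïve replicate 1 (adjusted p 0.00313 to 0.165 from limma). The other Meis1 probe sets were not called (log2 fold changes -1.32 and -0.43, adjusted p = 0.442 and 0.900 from limma). Meis3 ran the other way without a call, with 1560, 1844 and 2774 in iLarge T and 459, 525 and 922 in naïve cells (log2 fold change 1.72, adjusted p = 0.0552 from limma). Pbx2 and Pbx3 had log2 fold changes of 0.25 and -0.25 and were not called.

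Chromatin regulators that silence or maintain Hox clusters were called lower where they were called at all. Of 28 Polycomb group genes 0 were called higher and 3 lower, against 3.54% and 3.26% of all genes, with a median log2 fold change of -0.42, against 0.06 over all genes. Ezh2, the main H3K27 methyltransferase, had 3127, 3546 and 3050 on the iLarge T arrays and 15183, 10718 and 13862 on the naïve arrays and fell by 2.02 on the log2 scale (SE 0.25, adjusted p = 0.00239 from limma). Its partner Suz12 fell by 1.29 (adjusted p = 0.0174) and the histone-binding subunit Rbbp4 by 1.13 (adjusted p = 0.0291, both from limma). Of 13 Trithorax group and H3K27 demethylase genes 0 were called higher and 4 lower, beside the same shares of all genes, with a median of -0.69. Psip1, the chromatin tether of the MLL complex, had 3528, 3627 and 2201 in iLarge T and 10691, 21121 and 18983 in naïve cells and fell by 2.42 (adjusted p = 0.00390 from limma). The MLL complex subunits Ash2l and Dpy30 and the acetyltransferase Kat6a fell by 1.24, 1.04 and 1.10. The other Kat6a probe sets were not called (log2 fold changes -1.586 and -1.335, adjusted p = 0.651 and 0.746 from limma). Suz12 had uncalled probe sets at -0.71, -0.88 and -1.38 (adjusted p = 0.733, 0.624 and 0.332 from limma). Rbbp4 had one at -4.24 and Psip1 one at -1.29 (adjusted p = 0.0619 and 0.215 from limma). Further probe sets of Suz12, Rbbp4 and Psip1 were called lower. The calls of Suz12, Rbbp4, Ash2l, Dpy30 and Kat6a were each lost without iLarge T replicate 4, iLarge T replicate 6, naïve replicate 3 or naïve replicate 5, and those of Dpy30 and Kat6a also without iLarge T replicate 2 (adjusted p up to 0.0907, 0.129, 0.0798, 0.126 and 0.203 from limma). Those of Ezh2 and Psip1 held without any 1 array.

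Among genes that set Hox expression in the embryo, 2 of 11 were called higher in iLarge T cells and 0 lower, against 3.54% and 3.26% of all genes. Both handle retinoic acid, an inducer of anterior Hox genes. Aldh1a2, which makes it, had 6036, 4748 and 27491 on the iLarge T arrays and 2111, 869 and 452 on the naïve arrays (log2 fold change 3.30, adjusted p = 0.0275 from limma). Cyp26b1, which degrades it, had 4299, 2703 and 16750.1 against 612, 20.2 and 223 in naïve cells (log2 fold change 5.37, adjusted p = 0.0256 from limma). Both were highest on iLarge T replicate 6, the array with the highest sums of endothelial and hematopoietic markers (Cdh5 was at 23797 there, against 2211 and 2787 on iLarge T replicates 2 and 4), and the part of those cells was not tested. Without iLarge T replicate 6 neither was called (adjusted p = 0.0829 for Aldh1a2 and 0.124 for Cyp26b1 from limma). Aldh1a2 was also lost without iLarge T replicate 2, naïve replicate 3 or naïve replicate 5, and Cyp26b1 without iLarge T replicate 2 or 4. Cdx1 and Cdx4, caudal factors that induce posterior Hox genes, were under the limit on all 6 arrays. Cdx2, of the same family, read 114, 418 and 217 on the iLarge T arrays, over the limit on 2 of them. On the naïve arrays it read 51.1, 44.5 and 96.8, under the limit on each. Its log2 fold change was 1.85 without a call (adjusted p = 0.379 from limma).

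Genes that flank the clusters were read for comparison. Of 14 neighbours, 9 were at or above the limit on all 3 iLarge T arrays and 10 on all 3 naïve arrays, where 61.1% and 58.8% of all genes were. None was called by limma, where 3.54% of all genes were called higher and 3.26% lower. At an unadjusted p under 0.05 in limma there was 1, against 22.0% of all genes. Beside HoxA, Skap2 read 5667, 9360.3 and 9576 in iLarge T and 5255, 8883 and 7642 in naïve cells. Mtx2, next to HoxD, read 9850, 9660 and 8991 against 9925, 8603 and 8286. Evx1, a homeobox gene at the posterior end of HoxA, was under the limit on all 6 arrays. Of 3 measured noncoding transcripts of the clusters, Hoxa11os, Hoxb5os and Hoxd3os1, none was at or above it on all 3 arrays of either group.

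Other regulators of position did change between the groups. Of 16 limb patterning genes, 3 were called higher and 2 lower in iLarge T cells, against 3.54% and 3.26% of all genes. Hand2, a factor of the posterior limb bud and the splanchnic mesoderm, had 566, 255 and 169 on the iLarge T arrays and 21728, 28942 and 24498 on the naïve arrays and fell by 6.42 on the log2 scale (SE 0.43, adjusted p = 0.000254 from limma). Prrx1, a homeobox gene of limb and head mesenchyme, had 12125, 18089 and 12686 in iLarge T and 3451, 2752 and 3020 in naïve cells (log2 fold change 2.20, adjusted p = 0.00198 from limma). Tbx15 had a log2 fold change of 4.04 (adjusted p = 0.0116) and En1 was at least 3.59-fold higher (adjusted p = 0.0236, both from limma), calls lost without iLarge T replicate 2, 4 or 6, and for En1 also without naïve replicate 3. Gli3 fell by 1.15 (adjusted p = 0.0335 from limma), a call that held only without naïve replicate 1 among the arrays left out. The other Gli3 probe sets were not called (log2 fold changes -1.38 and -1.06, adjusted p = 0.192 and 0.0709 from limma). Tbx4 and Pitx1, the hindlimb selectors, and Tbx5, that of the forelimb, each reached the limit on at most 1 array in each group. Of 24 factors used in head mesenchyme, 4 were called higher and 0 lower, against 3.54% and 3.26% of all genes, with a median log2 fold change of 2.01. Foxd1 had 12584, 13128 and 19985 in iLarge T and 158, 119 and 13.5 in naïve cells, and Msx2 12423, 5883 and 7517 against 80.1, 227 and 219. Both calls held without any 1 array, and Foxd1, under the limit on all naïve arrays, was above them by at least 68.1-fold. Six2 (log2 fold change 3.32) was lost without iLarge T replicate 4 or 6, and Foxc1 (1.83) without any array other than naïve replicate 1. The lists overlap in use, since Prrx1 and Msx2 act in limb and head alike. Of 5 mural markers, Rgs5 and Cspg4 were called higher in the same arrays, and Kcnj8, Abcc9 and Acta2 were not called. The receptor gene Pdgfrb (log2 fold change 3.74) and Tmem119 (4.10), the only microglia marker called, were also called higher there. The part of any such cells in these changes was not tested.

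**Figure D5:**
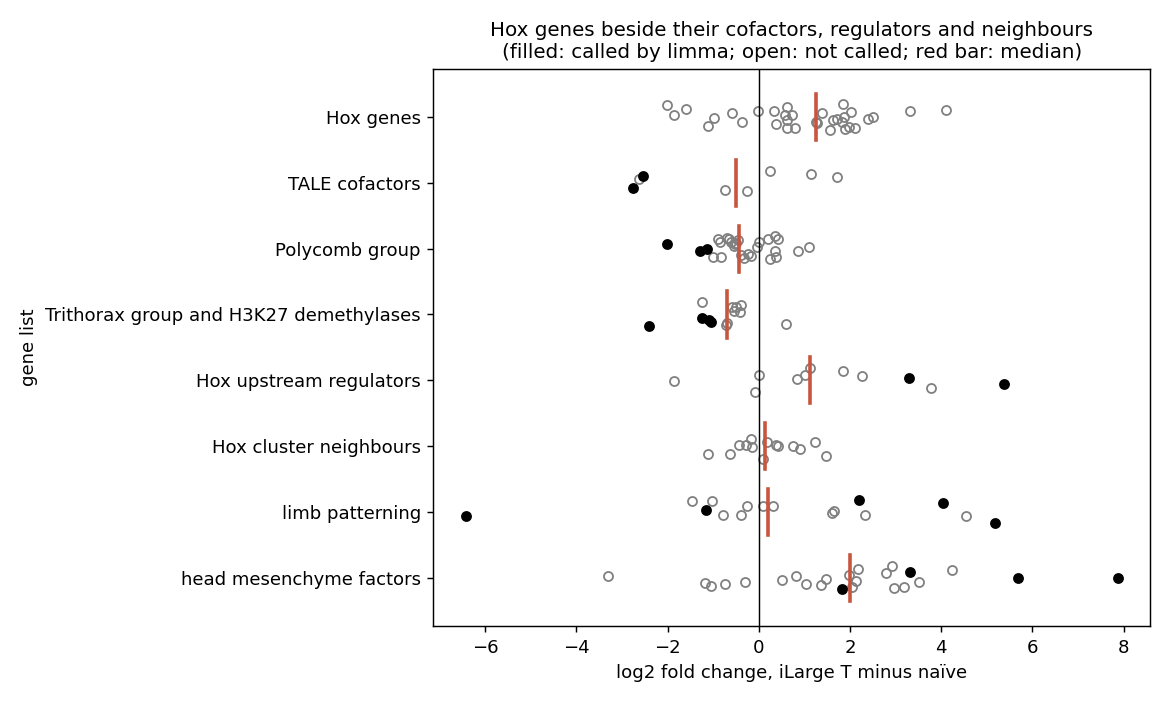
Each point is a gene, placed by its log2 fold change, iLarge T minus naïve, filled where limma called it and open where it did not, with 1 row per gene list and a red bar at the list's median. All 33 Hox genes are open, whereas the other lists hold 20 filled points, of which those of the TALE cofactors, Polycomb and Trithorax group genes lie left of 0.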

How the data were processed

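Labelled RNA of 3 iLarge T and 3 naïve samples was hybridized to Affymetrix Mouse Genome 430 2.0 arrays. The deposited values are linear intensity signals that the authors made with MAS5 in GeneChip Operating Software 1.2, scaled so that the trimmed mean was 2500 on each array. They are not counts, and precision is set by the number of arrays. Of 45101 probe sets, 64 controls were left out. Probe sets were named from the platform annotation, where 34945 had 1 symbol, 932 several and 9160 none, and those with several name no gene. The deposited signals were taken to log2 and fitted with limma 3.58.1 in R 4.3.3 (lmFit, eBayes with an intensity trend), unpaired, with Benjamini-Hochberg adjustment over 45037 probe sets. A call needed an adjusted p under 0.05 and a 2-fold change. The 40th percentile of each array was the limit of near background. A fold against a group wholly under it was computed from the other group's mean and the limit. It bounds the fold between group means from below and makes no allowance for the spread between arrays. The fit was tested on simulated data. Tables and figures were made with Python 3.11.15, pandas 2.3.3 and matplotlib 3.10.9.

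The members, gene lists and markers were chosen with earlier results of these data known. Hox genes were named, with the signal of each array for those above the limit on all 3 arrays of a group. Of other lists, called members were named. Further genes (such as Hoxa4, Hoxb6, Hoxa10, Meis3 and Skap2) were named after their values were seen. Alternatives were other tests, scalings, filters, probe set choices, limits and fold thresholds and leaving out each array. A block of arrays with like spike-in signals was added after seeing the data.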

Additional observations from a re-analysis of the deposited data

How the results depend on the processing

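The labels name no pairs, and their replicate numbers (2, 4 and 6, against 1, 3 and 5) share none, so the main test was unpaired. The only block tried paired iLarge T replicates 2, 4 and 6 with naïve replicates 1, 3 and 5 in that order, the closest in spike-in signals. These are also consecutive numbers in the labels, but the block was read from the data and not from the design. No Hox gene was called higher by the main test, and 1, Hoxd8, was once low signals had been raised to the limit, once its probe sets had been averaged and once the spike-in pairs had entered as a block, the last a choice made after seeing the data. With 1 array left out, 0 to 1 Hox genes were called higher and 0 to 1 lower, each 1 being without naïve replicate 1. The median Hox log2 fold change of 1.26 was 0.18 with low signals raised and 0.69 to 1.43 with 1 array left out. The number of Hox genes at or above the limit on all iLarge T arrays, 6 as reported, was 3 with averaged probe sets and 6 to 9 with 1 array left out. The number on all naïve arrays, 2 as reported, was 4 at the 30th percentile, 1 at the 50th, 0 with the most variable probe set, 0 with averaged probe sets, and 2 to 6 with 1 array left out, where fewer arrays had to pass. The log2 fold change of Hoxc13 turned to -0.60 on linear signals, -0.29 with low signals raised and -1.16 without naïve replicate 1 (-1.16 to 1.73 over the arrays left out), and that of Hoxa3 to -2.35 with the most variable probe set and -0.34 with the mean of the probe sets. The cause was not tested. Of all probe sets 2137 were called, against 28 with the methods' t-test on log2 and 100 on linear signals, 295 without the intensity trend, 3161 with low signals raised, 3146 with the block, and 910 to 4482 with 1 array left out. The paper reports many more genes from its own unpaired t-test than the t-test run here called, and the reason was not tested. Of the values of single genes under the alternatives, 533 kept direction and side of the threshold, 196 lost the call, 4 gained one and 5 changed sign. Signals near background limit all Hox values.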
